A study of Homo sapiens with 24 samples.

Results

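The kinesin family comprises ATP-driven motor proteins that walk along microtubules or take their ends apart. Its genes were chosen by symbol, as every protein-coding gene named KIF followed by a number and at most 1 letter A to C and 1 further digit. This rule found 39 of the 58174 genes listed, or 39 of 19799 protein-coding genes. It does not find the motors named otherwise, KIFC1, KIFC2, KIFC3 and CENPE, which were followed as a list of their own. By textbook role, 13 members were taken as mitotic kinesins, 13 as transport kinesins and 13 as other kinesins. The bounds of the classes are a choice, and KIF2A was placed among the other kinesins.

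Total RNA depleted of ribosomal RNA was sequenced from 4 established human cancer cell lines upon knockdown of IGF2BP1, an oncofetal RNA-binding protein, to find RNAs whose abundance depends on it. The lines were A549 from lung adenocarcinoma, ES2 from ovarian clear cell adenocarcinoma, MV3 from amelanotic melanoma and PANC1 from pancreatic ductal adenocarcinoma. In each line, 3 libraries were made from cells transfected with a control siRNA (siC) and 3 from cells transfected with pooled siRNAs that target IGF2BP1 (siI1), which gives 24 libraries in 8 groups. Cells were harvested 72 h after transfection in A549, ES2 and MV3 and 96 h after it in PANC1, so a difference between PANC1 and the other lines cannot be told apart from a difference in harvest time. Each line stands for 1 culture background, and the siRNA pool left part of the IGF2BP1 mRNA in place.

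Between 3105215 and 20082702 reads were assigned to genes per library, with A549 the shallowest line and MV3 the deepest. Levels are FPKM as deposited, in which reads are divided by gene length and by library size. Each line was normalised on its own, so levels set across lines are a description only. Values given for the 4 lines together follow the order A549, ES2, MV3, PANC1. IGF2BP1 had 39.8, 39.8 and 39.6 FPKM in the siC libraries of A549 and 15.3, 16.4 and 15.2 in the siI1 libraries. In ES2 it had 13.1, 13.97 and 12.1 against 4.22, 4.19 and 4.03 FPKM, in MV3 9.09, 9.64 and 9.06 against 3.02, 2.95 and 2.77, and in PANC1 11.2, 11.3 and 11.0 against 2.75, 2.87 and 2.71. The siI1 mean was thus 39.4%, 31.7%, 31.4% and 24.9% of the siC mean, and the groups were far apart in each line. Keratins and CDH1 were present in A549 (KRT7 at 399 and CDH1 at 18.4 FPKM in siC) and in PANC1 (KRT19 at 617 and CDH1 at 4.55 FPKM). EPCAM was at 1.17 FPKM in siC of A549 and 3.59 in PANC1. Some keratins were also present in ES2 (KRT7 at 103 FPKM in siC) and MV3 (KRT18 at 19.2 FPKM). SOX9, 1 of the pancreatic ductal markers, was at 18.2 FPKM in siC of PANC1 and at 22.5 in ES2. The lung markers NKX2-1, SFTPB and SFTPC were at or near 0 in A549, as were PAX8 and WT1 in ES2 and CFTR in PANC1. In MV3 the melanocytic markers SOX10, S100B and TYR were listed at 0, PMEL and MLANA had at most 5 reads per library, and MITF was at 0.319 FPKM in siC, the lowest of the 4 lines. Leukocyte and endothelial markers did not exceed a mean of 0.327 FPKM in any group.

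Mitotic kinesins build and shorten the spindle, carry chromosomes along it and organise the midzone and midbody at which the daughter cells part. Transport kinesins carry vesicles, endosomes, mitochondria and ciliary cargo toward microtubule plus ends. Most mitotic kinesin genes are transcribed late in the cell cycle under promoters that often combine CCAAT boxes with a cell cycle genes homology region (CHR), the element through which the DREAM and MYBL2-FOXM1 complexes act. The levels of these mRNAs therefore depend on the cell cycle stages present in a culture, and in bulk RNA fewer cells in a stage and less RNA per cell cannot be told apart.

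Since the mitotic class is defined by use in cell division and not by promoter, the CHR (letters TTTGAA, searched on both strands) and the CCAAT box (letters CCAAT, both strands) were looked for from 250 bases before to 50 bases after the transcription start in RefSeq promoters (GRCh38.p14). Of the 39 members, 33 had a promoter in that table, and KIF5A, KIF13B, KIF19, KIF21B, KIF26B and KIF27 had none. The CHR letters were in 9 of 13 mitotic promoters, in 1 of 11 transport promoters and in 0 of 9 other promoters, while 11.9% of all 14639 protein-coding promoters held them. The CCAAT letters were in 10 mitotic, 3 transport and 3 other promoters, against 36.4% of all. Both were in 8 mitotic promoters and in 1 transport promoter (KIF5B), against 4.97% of all. The E2F letters GCGGGAA were in 0 mitotic, 2 transport and 1 other promoter, against 8.68% of all. The windows around each match are given because the CHR letters were in most mitotic and in few transport promoters, a difference that was not tested; capitals mark the CHR as TTTGAA or its reverse complement TTCAAA, and a CCAAT box as CCAAT or ATTGG where it falls within the same 30 bases. KIF20B held 2 CHR matches, side by side.
KIF4A (chrX:70290046-70290075, + strand): ATTGGttggcgtctccgggacggaTTTGAA
KIF4B (chr5:155013734-155013763, + strand): ATTGGttggtgtctctgggagggaTTTGAA
KIF11 (chr10:92593090-92593119, + strand): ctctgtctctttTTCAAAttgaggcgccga
KIF14 (chr1:200620744-200620773, - strand): CCAATcagaaggcggggcgcccaTTCAAAt
KIF15 (chr3:44761747-44761776, + strand): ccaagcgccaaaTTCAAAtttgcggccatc
KIF18A (chr11:28108149-28108178, - strand): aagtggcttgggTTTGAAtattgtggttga
KIF18B (chr17:44947754-44947783, - strand): ccgcccggctaaTTTGAAcgcaaggcgccg
KIF20B (chr10:89701602-89701631, + strand): tggccgccattgTTTGAATTTGAAaacggt
KIF23 (chr15:69414278-69414307, + strand): ggcgctgATTGGcccgTTTGAAatgcgcca
KIF5B (chr10:32056548-32056577, - strand): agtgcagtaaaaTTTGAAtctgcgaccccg

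In the KIF4A, KIF11 and KIF14 promoters the CHR lay 23 to 25 bases beyond a CCAAT box, and in KIF4B 24 bases. In KIF18A and KIF18B the distance was 35 and 34 bases, and over the 8 mitotic promoters with both it ran from 9 bases in KIF23 to 122 in KIF20B. The KIF5B match lay 140 bases before the start, ahead of its CCAAT box, and was the match farthest from the start among those shown. KIF2B, KIF2C, KIF20A and KIF22 held no CHR letters in the window, and KIF2C and KIF22 of these are among the members that fell in every line. A match or its absence describes these letters in this window only.

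Upon IGF2BP1 knockdown, some mitotic kinesin mRNAs fell in each of the 4 lines and none rose, with KIF2C, KIF4A, KIF11 and KIF22 called lower throughout. Few transport kinesins were called, in both directions, and often in numbers near the share of all genes. Genes had to average 0.5 FPKM or more over a line's 6 libraries to be tested, which 29, 28, 28 and 30 members did in the 4 lines and 24 did throughout. A gene was called where limma's adjusted p, over all genes tested in the line, was below 0.05. In A549, 5 of 11 mitotic kinesins were lower, against 2 of 9 transport and 1 of 9 other kinesins and against 7.83% of all genes tested. In ES2, 4 of 12 mitotic, 1 of 10 transport and 0 of 6 other kinesins were lower, against 13.0% of all genes; of those 6, 2 were lower at an unadjusted p below 0.05 and 1 by limma voom on read counts. In MV3, 10 of 12 mitotic, 3 of 10 transport and 2 of 6 other kinesins were lower, against 19.5% of all genes. In PANC1, 10 of 12 mitotic, 3 of 11 transport and 2 of 7 other kinesins were lower, against 13.4% of all genes. All members are protein-coding. Of protein-coding genes tested, 1340 of 11756, 2005 of 11171, 2941 of 10960 and 1927 of 11109 were lower in the 4 lines, larger shares than over all genes. The transport falls in ES2 and MV3 were not far from these shares. The difference in counts between the classes was not tested.

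Rises were few. One transport kinesin was higher in A549 (5.93% of all genes tested were higher there), none in ES2 (10.5%; 2 at an unadjusted p below 0.05, 1 by limma voom), 1 in MV3 (16.3%) and 1 in PANC1 (11.3%), where 1 other kinesin also rose. The transport rises in MV3 and PANC1 were thus near or below the share of all genes. No mitotic kinesin was higher in any line by limma, and none was at an unadjusted p below 0.05 or by limma voom on read counts. The median log2 fold change of the mitotic class was -0.37, -0.23, -0.48 and -0.79 in the 4 lines. That of the transport class was -0.11, 0.02, 0.05 and -0.14, and that of all genes tested was -0.01, -0.02, 0.01 and -0.04. Scaling the libraries to the same sum of reads moved the median of all genes in PANC1 to -0.18. The transport kinesins called lower there then rose from 3 to 7 of 11, against 3489 of 15868 genes tested. Relative to all genes, the mitotic median in PANC1 was -0.75 as deposited and -0.76 after that scaling.

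**Figure D1:**
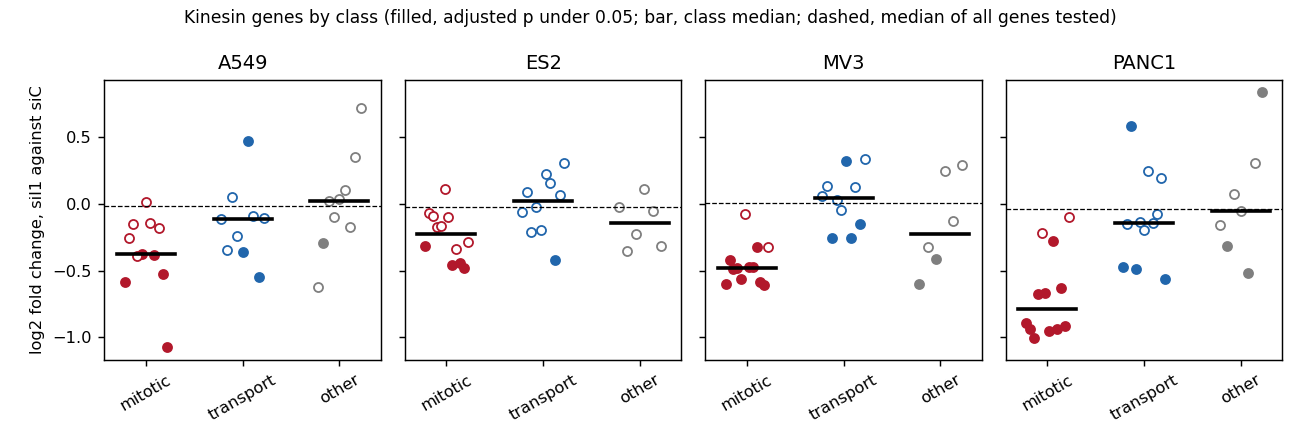
Log2 fold change of siI1 against siC (vertical axis) for every kinesin gene tested, by class and cell line, with filled points at an adjusted p under 0.05, bars at class medians and a dashed line at the median of all genes tested. The mitotic median lies below the dashed line in each panel, from -0.23 in ES2 to -0.79 in PANC1, while transport medians lie between -0.14 and 0.05.

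KIF2C, KIF4A, KIF11 and KIF22 were lower in all 4 lines, which makes 4 of the 24 members tested throughout, against 2.51% of the 12816 genes that were tested throughout. No member was higher in all 4 lines by limma, at an unadjusted p below 0.05 or by limma voom, and 0.577% of genes were. Of the 11 mitotic kinesins tested throughout, 4 were lower in 4 lines, 6 in 2 lines and KIF20A in 1 line. Of the 8 transport kinesins tested throughout, 2 were lower in 2 lines, 4 in 1 line and 2 in none, and no member was lower in one line and higher in another.

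KIF11, at chr10:92574105-92655395 on the plus strand (GRCh38), slides antiparallel microtubules apart and so keeps the spindle bipolar. In A549 the 3 siC libraries held 35.8, 38.7 and 34.03 FPKM and the siI1 libraries 22.9, 23.4 and 25.5. In ES2 they held 45.4, 42.2 and 47.6 against 35.3, 36.9 and 36.1 FPKM. The groups did not overlap in either line, and ES2 had the smaller gap. In MV3 siC libraries were at 34.3, 34.1 and 33.3 FPKM and siI1 libraries at 23.6, 21.3 and 21.7. In PANC1 they were at 35.9, 33.5 and 36.6 against 17.9, 20.9 and 17.7 FPKM. The log2 fold changes in the 4 lines were -0.59 ± 0.07, -0.31 ± 0.05, -0.60 ± 0.04 and -0.89 ± 0.08 (SE), with adjusted p values of 0.00462, 0.00907, 0.000291 and 0.00151 by limma.

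KIF4A, at chrX:70290104-70420886 on the plus strand, is a chromokinesin that rides on chromosome arms and, with PRC1, sets the length of microtubule overlaps at the midzone. Its fall in A549 was the largest called in any class there. The siC libraries of A549 held 21.7, 19.7 and 19.7 FPKM and the siI1 libraries 7.27, 10.7 and 10.6, so that siI1 replicate 1 lay below the other 2. In ES2 the values were 48.5, 50.1 and 48.3 against 34.1, 34.7 and 35.9 FPKM. In MV3 they were 48.0, 46.1 and 45.04 against 29.99, 29.8 and 31.0 FPKM, and in PANC1 35.7, 34.3 and 36.0 against 19.9, 18.01 and 17.5. No siI1 library reached the lowest siC library of its line. The log2 fold changes were -1.07 ± 0.15, -0.48 ± 0.04, -0.61 ± 0.03 and -0.92 ± 0.06, with adjusted p values of 0.00826, 0.00076, 0.000166 and 0.000857 by limma. Without siI1 replicate 1 the value in A549 was -0.90.

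KIF2C, at chr1:44739818-44767767 on the plus strand, is a depolymerase that removes wrongly attached microtubules from kinetochores. It had 18.2, 19.6 and 19.4 FPKM in the siC libraries of A549 and 14.2, 12.4 and 12.7 in the siI1 libraries. In ES2 it had 47.2, 50.2 and 47.4 against 36.2, 33.6 and 36.7 FPKM. A549 had the lowest siC level of KIF2C and MV3 the highest, with 63.1, 62.0 and 60.4 FPKM in siC and 39.6, 41.9 and 41.9 in siI1. In PANC1 the values were 34.7, 36.6 and 34.5 against 23.1, 22.3 and 22.4 FPKM. The 4 log2 fold changes were close together, at -0.52 ± 0.07, -0.44 ± 0.05, -0.58 ± 0.03 and -0.63 ± 0.05 (adjusted p = 0.0077, 0.00235, 0.000173 and 0.00112, limma).

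KIF22, at chr16:29790727-29805385 on the plus strand, is a chromokinesin that pushes chromosome arms away from the spindle poles. In A549 its siC libraries held 21.9, 19.8 and 19.9 FPKM and its siI1 libraries 15.9, 16.9 and 14.3, without overlap. In ES2 they held 31.0, 35.5 and 32.3 against 24.05, 23.6 and 23.6 FPKM, and in MV3 35.1, 33.3 and 31.8 against 23.0, 23.4 and 25.3. PANC1 showed the smallest fall, with 26.4, 25.9 and 26.3 FPKM against 22.8, 20.6 and 21.2. The log2 fold changes were -0.38 ± 0.08, -0.46 ± 0.06, -0.47 ± 0.05 and -0.28 ± 0.06, with adjusted p values of 0.0289, 0.00308, 0.00105 and 0.0156 by limma. The call in A549 depended on single libraries: it was kept without siI1 replicate 2 (adjusted p = 0.0463) and lost without any other single library, with a largest adjusted p of 0.0948 without siC replicate 1. In PANC1 it was lost without siC replicate 1 (0.0634), siI1 replicate 2 (0.0519) or siI1 replicate 3 (0.0521).

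**Figure D2:**
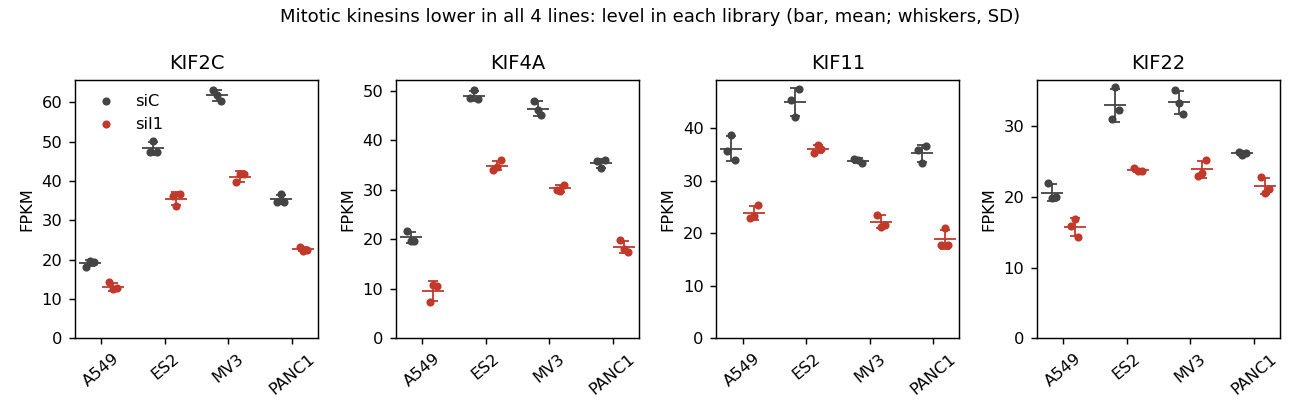
FPKM (vertical axis, from 0) of the 4 mitotic kinesins called lower in every line, with 1 point per library, a bar at the mean and whiskers of 1 SD (n = 3). The siI1 points lie below the siC points of the same line, which the choice of genes called lower makes likely and which adds no support. The A549 point of KIF4A at 7.27 FPKM is the lowest shown.

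A further group of mitotic kinesins was lower in MV3 and PANC1. These were KIF14, which works with citron kinase at the midbody, KIF15, which shares the task of spindle bipolarity with KIF11, KIF18A, which dampens chromosome movements at metaphase, KIF20B, a motor of abscission, and KIF23, the motor subunit of centralspindlin. KIF15 had the largest fall called in PANC1, with 10.1, 8.16 and 9.53 FPKM in siC against 4.48, 3.87 and 4.77 in siI1, a log2 fold change of -1.002 ± 0.11 (adjusted p = 0.00237, limma). KIF20B, KIF14 and KIF23 had log2 fold changes of -0.95, -0.94 and -0.94 in PANC1 and of -0.48, -0.42 and -0.32 in MV3. KIF20B varied more than the others in the siC libraries of PANC1, with 21.4, 16.2 and 25.7 FPKM, but its siI1 libraries, at 9.48, 10.0 and 12.1, lay below all of them. KIF18A had log2 fold changes of -0.68 in PANC1 and -0.48 in MV3. In A549 (-0.39, adjusted p = 0.0659, limma) and ES2 (-0.17, 0.053) KIF18A was not called. In A549 and ES2, KIF14, KIF15, KIF20B and KIF23 had values between -0.34 and -0.07, none of them called. The call of KIF23 in MV3 (adjusted p = 0.0212) held without siC replicate 2 or siI1 replicate 3 and was lost without any other single library, with a largest adjusted p of 0.0625 without siI1 replicate 1.

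KIF18B, which shortens astral microtubules, was lower in A549 (log2 fold change -0.37, adjusted p = 0.0412, limma) and MV3 (-0.56, 0.000253). The call in A549 held without siI1 replicate 3 (-0.45) and was lost without any other single library, with a largest adjusted p of 0.121 without siC replicate 3 and the smallest change, -0.30, without siI1 replicate 1. In ES2 it was at -0.17 with an adjusted p of 0.05002, just above the threshold, and in PANC1 at -0.22 (0.137).

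KIF20A, chosen here after its values were seen, brings the chromosomal passenger complex to the midzone. It had 16.1, 15.2 and 16.2 FPKM in the siC libraries of A549 and 16.6, 15.8 and 15.6 in the siI1 libraries, which overlap. In ES2 it had 32.7, 34.2 and 29.1 against 36.1, 32.9 and 35.0 FPKM, also overlapping. In MV3 the siC libraries at 48.6, 48.8 and 48.9 FPKM lay just above the siI1 libraries at 45.3, 47.6 and 45.8, a log2 fold change of -0.08 ± 0.03 (adjusted p = 0.087, limma). PANC1 alone had a call, with 18.04, 19.9 and 17.5 against 10.8, 11.6 and 11.7 FPKM and a log2 fold change of -0.67 ± 0.07 (adjusted p = 0.00213).

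The remaining mitotic members were scarce. KIF2B, a depolymerase related to KIF2C, was listed at 0 in every library. KIF4B, an intronless copy of KIF4A at chr5:155013755-155018141, was tested in 3 lines with siC means from 0.546 to 0.985 FPKM and was called in none, with log2 fold changes of -0.28 in ES2, -0.32 in MV3 and -0.10 in PANC1. Of the 4312 stretches of 76 bases, 1 read length, in its transcript, 186 (4.31%) also occur in KIF4A, so a part of its reads may have been shared with KIF4A.

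**Figure D3:**
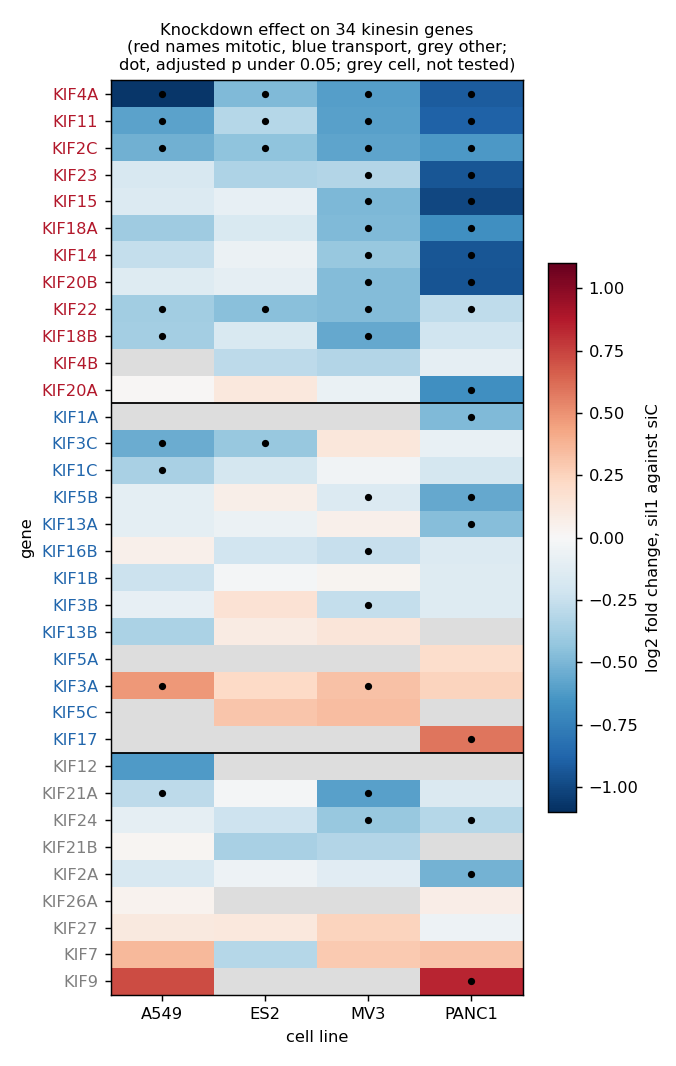
Log2 fold change of siI1 against siC (colour scale, red higher and blue lower) for the 34 kinesin genes tested in at least 1 line, with genes in rows by class, cell lines in columns, dots at an adjusted p under 0.05 and grey cells where a gene was not tested. Dots are dense in the mitotic block, with 4 genes marked in all 4 lines, and scattered in the transport block, where KIF3A and KIF17 are the marked rises.

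Transport kinesins were led by KIF5B, the widely expressed heavy chain of conventional kinesin. It had the highest siC level of all members in each line, with means of 49.7 ± 1.97, 53.3 ± 2.65, 66.2 ± 1.78 and 46.5 ± 2.67 FPKM (SD, n = 3). In PANC1 it had 43.6, 46.9 and 48.9 FPKM in siC against 31.5, 32.3 and 29.8 in siI1, the largest fall called in its class there, with a log2 fold change of -0.57 ± 0.06 (adjusted p = 0.00241, limma). In MV3 the values were 65.1, 65.4 and 68.3 against 58.8, 57.2 and 62.6 FPKM, a change of -0.15 ± 0.04 (0.0311). The MV3 call held without siI1 replicate 3 (-0.19) and was lost without any other single library, with the smallest change, -0.13, and an adjusted p of 0.0913 without siI1 replicate 2. The groups overlapped in A549, at 48.6, 51.9 and 48.4 against 45.4, 44.6 and 48.6 FPKM, and in ES2, at 50.9, 53.0 and 56.2 against 54.0, 57.8 and 56.0 FPKM.

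The subunits of heterotrimeric kinesin, which drives transport into cilia, were called in different lines and directions. KIF3A, the subunit that pairs with KIF3B or KIF3C, was higher in A549, with 6.40, 6.12 and 5.85 FPKM in siC against 8.88, 8.27 and 8.97 in siI1 (log2 fold change 0.48 ± 0.08, adjusted p = 0.0122, limma). It was also higher in MV3, with 4.53, 4.71 and 4.82 against 5.88, 5.58 and 6.56 FPKM (0.32 ± 0.07, 0.0112). In ES2 and PANC1 the siI1 libraries also lay above the siC libraries, at 0.22 (0.0867) and 0.25 (0.198) on the log2 scale, without a call. KIF3C fell in A549, from 27.5, 24.6 and 27.9 FPKM to 17.1, 18.1 and 19.0 (-0.55 ± 0.07, 0.00626), and in ES2, from 7.51, 7.64 and 6.97 to 5.80, 4.94 and 5.47 (-0.42 ± 0.08, 0.0125). In MV3 its libraries were at 8.24, 7.87 and 7.44 against 8.46, 8.79 and 8.61 FPKM (0.13, adjusted p = 0.0808), and in PANC1 at 12.04, 13.9 and 12.6 against 12.2, 13.0 and 11.1, overlapping. KIF3B was lower in MV3, with 26.9, 28.1 and 26.7 against 22.8, 22.4 and 22.8 FPKM (-0.26 ± 0.03, 0.00139), the largest fall called in its class there. In ES2 it had 13.96, 13.96 and 14.9 against 16.2, 15.7 and 16.1 FPKM (0.16, 0.0616), and in A549 and PANC1 values of -0.09 and -0.14 without a call.

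Other cargo carriers were called in single lines. KIF1C, a fast carrier of vesicles, fell in A549 from 38.8, 34.2 and 36.5 FPKM to 28.0, 31.0 and 26.2 (log2 fold change -0.36, adjusted p = 0.0354, limma), a call that held without siI1 replicate 2 and was lost without any other single library, with 0.112 without siC replicate 1. KIF16B, which moves early endosomes, was lower in MV3 (-0.25, 0.00682). In PANC1, KIF1A, best known from axonal transport of synaptic vesicle precursors, fell from a mean of 11.1 to 7.78 FPKM (-0.49, 0.00448), and KIF13A, which carries endosomal and Golgi-derived cargo, from 7.72 to 5.43 FPKM (-0.47, 0.00387). KIF1A was tested in PANC1 alone. KIF17, a motor of cilia and dendrites tested in PANC1 alone, rose there from 1.21, 1.34 and 1.17 FPKM to 2.29, 2.01 and 2.04 (0.59 ± 0.12, 0.0160), on 39 to 70 reads per library (mean 52.7). That call was lost without siI1 replicate 1 (0.0610) or siC replicate 1 (0.0559). KIF1B, which carries synaptic vesicle precursors and mitochondria, and KIF13B had no call where tested, with KIF1B between -0.24 and 0.03. The neuronal heavy chains KIF5A and KIF5C stayed below a mean of 1 FPKM in each group and had no call.

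Among the other kinesins, KIF2A, a depolymerase of the same subfamily as KIF2C, had the highest siC level in each line, with means from 9.94 FPKM in MV3 to 19.1 in A549. It fell in PANC1, where siC libraries were at 13.3, 14.5 and 15.0 FPKM and siI1 libraries at 9.16, 10.2 and 10.1 (log2 fold change -0.52 ± 0.07, adjusted p = 0.00488, limma). Its siI1 libraries also lay below the siC libraries in A549 (18.2, 20.4 and 18.8 against 17.2, 16.1 and 17.3 FPKM) and MV3 (9.67, 9.41 and 10.7 against 8.92, 8.96 and 9.26), without a call. In ES2 the groups overlapped, at 13.4, 15.1 and 13.0 against 13.0, 13.6 and 13.2 FPKM. KIF21A, which limits microtubule growth at the cell cortex, fell in MV3 from 3.82, 3.95 and 3.81 FPKM to 2.49, 2.16 and 2.50 (-0.60 ± 0.07, 0.00137). In A549 it had 13.5, 15.0 and 13.3 against 11.6, 11.5 and 10.7 FPKM (-0.29 ± 0.07, 0.0494), a call lost whichever single library was left out, with adjusted p from 0.0871 without siC replicate 3 to 0.132 without siI1 replicate 3. KIF24, which restrains cilium formation at the centriole, was lower in MV3 (-0.41, 0.00104) and PANC1 (-0.31, 0.0441), and the latter call held without siI1 replicate 2 and was lost without any other single library, with 0.122 without siI1 replicate 1.

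KIF9, a kinesin linked to motile cilia, rose in PANC1 from 0.522, 0.663 and 0.712 FPKM to 1.40, 1.42 and 1.75 (log2 fold change 0.84 ± 0.17, adjusted p = 0.0163, limma). The value rests on 22 to 65 reads per library (mean 43.5). In simulated data false calls lay mostly in genes that averaged fewer than 50 reads, which holds for KIF9 and nearly for KIF17. The simulation gave every gene and line the same spread beyond counting noise, so it does not vouch for calls on more reads. The KIF9 call was lost without siI1 replicate 3 (0.0615) or siC replicate 1 (0.0534). In A549 its libraries were at 0.587, 1.07 and 0.546 against 1.49, 1.99 and 1.11 FPKM (0.72, 0.170), without overlap and without a call. The gene KIF9-AS1, annotated as antisense, had 0.340, 0.456 and 0.584 FPKM in siC and 0.717, 0.713 and 0.643 in siI1 of PANC1. The strand setting of the read counting is not given in the sources used here, so reads of the pair may not have been told apart. KIF7, which acts at the cilium tip in Hedgehog signalling, its relative KIF27, and KIF12, KIF21B and KIF26A had no call where they were tested. KIF6, KIF19, KIF25 and KIF26B were below the minimum level in every line, and KIF19 was listed at 0 throughout.

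Summed over the 39 members, kinesin mRNA had means of 422 ± 6.50 FPKM in siC and 349 ± 11.2 in siI1 of A549, 481 ± 6.06 and 423 ± 1.68 in ES2, 557 ± 2.71 and 451 ± 7.53 in MV3, and 401 ± 8.76 and 278 ± 5.23 in PANC1 (SD, n = 3). The mitotic sum in siI1 was 76%, 82.8%, 72.5% and 59.6% of that in siC, and the transport sum 87.6%, 97.9%, 94.7% and 82.1%. The share of mitotic kinesins in the family's summed FPKM was 47.7% in siC and 43.8% in siI1 of A549, 63.3% and 59.5% in ES2, 59.99% and 53.7% in MV3, and 56.6% and 48.6% in PANC1. A share within a library does not depend on how libraries are scaled. In each line the highest siI1 share lay below the lowest siC share, for example 49.3% against 55.7% in PANC1 and 44.8% against 47.1% in A549. With KIF2A counted as mitotic, the mean shares were 52.2% in siC and 48.7% in siI1 of A549, and 66.2% and 62.7% in ES2. In MV3 they were 61.8% and 55.7%, and in PANC1 60.1% and 52.1%.

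**Figure D4:**
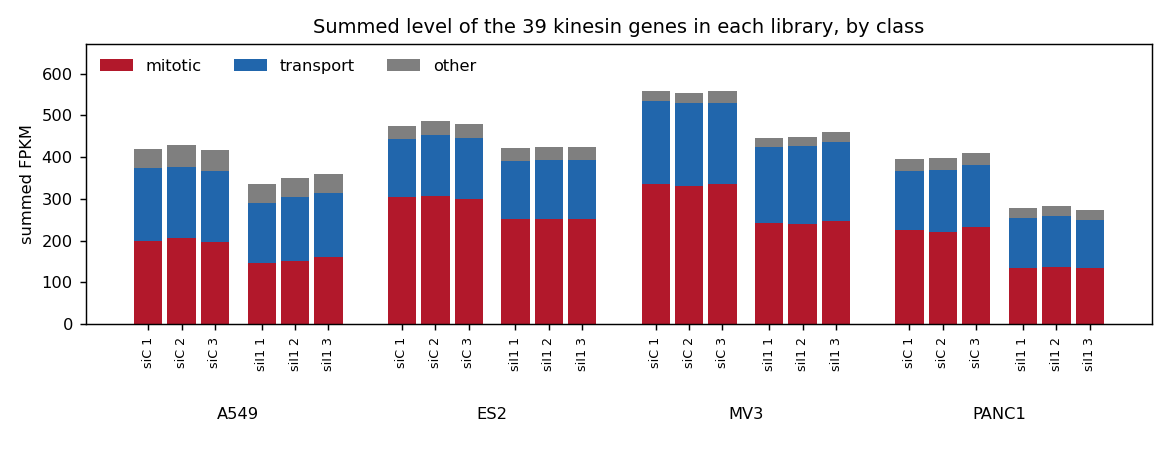
Summed FPKM of the 39 kinesin genes (vertical axis, from 0) in each of the 24 libraries, stacked by class. The red mitotic part shrinks in siI1 in every line, to 59.6% of siC in PANC1, and the blue transport part less, to between 82.1% and 97.9%.

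The size of the knockdown effect differed between the lines for 18 of the 24 members tested throughout, by limma's F test over the 4 fold changes, and 45.0% of all genes tested throughout passed this test (5288 of 9650 protein-coding genes). By class these were 9 of 11 mitotic, 6 of 8 transport and 3 of 5 other kinesins. The smallest adjusted p values were those of KIF20A (1.62e-06), KIF5B (1.37e-05), KIF15 (1.73e-05), KIF3C (8.21e-05) and KIF13A (0.000128). KIF20A, KIF5B, KIF15 and KIF13A had their largest fall in PANC1, and KIF3C in A549. KIF2C and KIF22, lower in every line, had adjusted p values of 0.130 and 0.215 in this test, and KIF3A one of 0.281, which does not show that their effects were alike. KIF11 (0.000568) and KIF4A (0.00402), also lower in every line, did differ in size, from -0.31 to -0.89 and from -0.48 to -1.07.

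**Figure D5:**
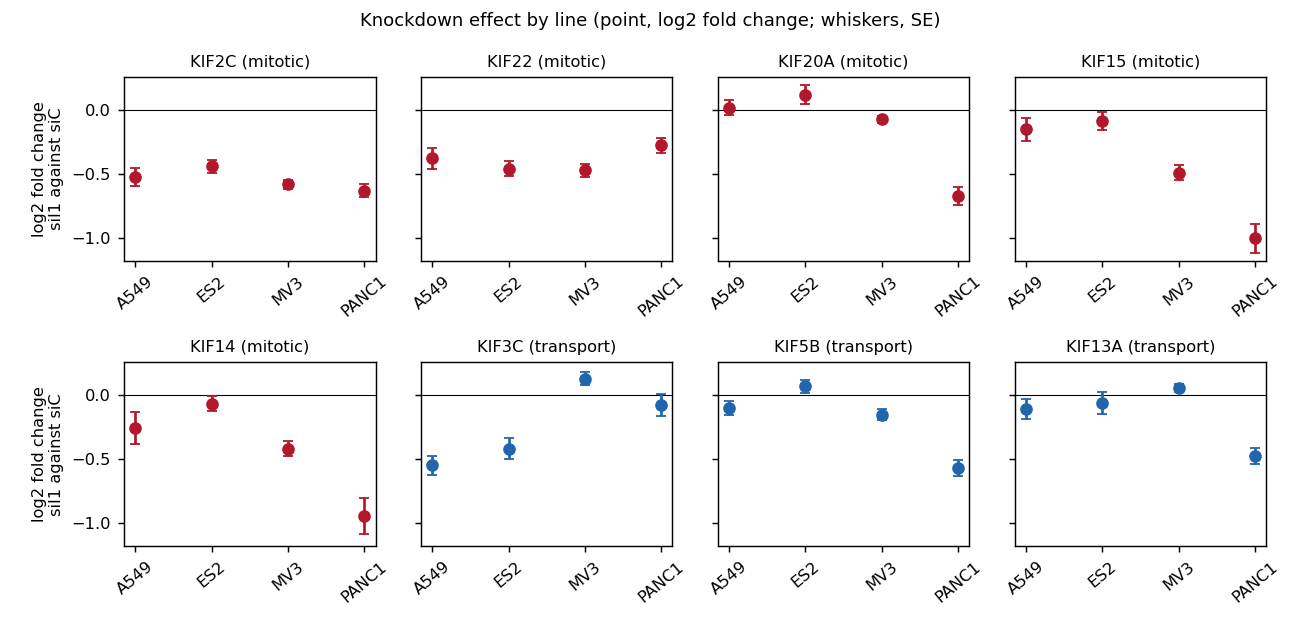
Log2 fold change of siI1 against siC with whiskers of 1 SE (vertical axis) in each cell line (horizontal axis) for 8 kinesin genes, mitotic in red and transport in blue. KIF2C stays between -0.44 and -0.63 in all 4 lines, whereas KIF20A is near 0 in A549, ES2 and MV3 and at -0.67 in PANC1.

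Genes that work with mitotic kinesins were also called lower, most of them in ES2, MV3 and PANC1. Most G2/M genes were called lower in MV3 and PANC1. Of 12 spindle and midzone partners, such as PRC1, the Aurora kinase AURKB and its passenger partner INCENP, 4, 10, 12 and 12 were lower in the 4 lines, with medians of -0.25, -0.35, -0.48 and -0.55, against 7.83%, 13.0%, 19.5% and 13.4% of all genes tested. Against the same shares, of 20 G2/M genes that are not motors, 7, 7, 20 and 19 were lower in the same order of lines, with medians of -0.29, -0.21, -0.44 and -0.61. Of 16 S phase genes, 7, 6, 16 and 14 were lower, with medians of -0.23, -0.13, -0.62 and -0.51, against the same shares. In ES2, 2 of the 16 were higher and in PANC1 1, near or below the 10.5% and 11.3% of all genes higher there. The part of a shifted cell cycle distribution in the values of the mitotic kinesins was not tested. The 4 motors that the naming rule leaves out were all tested in each line. Of them, 1 was lower in A549, 2 in MV3 and 2 in PANC1, against 7.83%, 19.5% and 13.4% of all genes. In ES2 1 was higher and in MV3 1, against 10.5% and 16.3% of all genes. CENPE, the kinetochore motor, had log2 fold changes of -0.24, 0.06, -0.42 and -1.07, called in MV3 (adjusted p = 0.00108, limma) and PANC1 (0.00726). KIFC1, the minus-end motor that focuses spindle poles, had -0.69, -0.25, -0.48 and -0.32, called in A549 (0.0206) and MV3 (0.00971). KIFC2 had 0.20, -0.15, 0.67 and 0.05, called in MV3 (0.000365). KIFC3 had -0.03, 0.31, 0.05 and -0.42, called in opposite directions in ES2 (0.0173) and PANC1 (0.0105).

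For the partners of transport kinesins, the shares of all genes tested were 7.83%, 13.0%, 19.5% and 13.4% lower and 5.93%, 10.5%, 16.3% and 11.3% higher. Of 9 light chains and adaptors tested, 0, 2, 2 and 0 were lower and 0, 1, 5 and 2 were higher, so that the 1 rise in ES2 and the 2 falls in MV3 were near the share of all genes. At an unadjusted p below 0.05, 2 were lower and 0 higher in A549 (1 and 0 called by limma voom), and 1 was lower in PANC1 (0 by limma voom). MAPK8IP1, a scaffold that links cargo to kinesin light chains, had the largest rise in PANC1, at 1.11 on the log2 scale (adjusted p = 0.00173, limma). Of 19 subunits and regulators of cytoplasmic dynein, the motor that runs the opposite way, 5, 3, 5 and 4 were lower and 2, 3, 2 and 4 were higher, in ES2 and MV3 not far from the share of all genes. DCTN5, a dynactin subunit, had the largest fall of that list in A549 (-1.32, 0.00138), MV3 (-0.68, 0.000167) and PANC1 (-0.69, 0.0017). Of 11, 10, 10 and 11 tubulins tested, 2, 5, 6 and 1 were lower and 1, 1, 3 and 3 higher.

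Mitotic and transport kinesins also had different median lengths of their 3′ UTRs, the regions to which IGF2BP1 is known to bind. The longest annotated 3′ UTR (GENCODE 44) had a median of 620 nt over the 11 mitotic kinesins tested in all 4 lines, 3107 nt over 8 transport kinesins and 2000 nt over 5 other kinesins, against 1533.5 nt over 9596 protein-coding genes tested in all lines. Among the 4 members lower in every line, it was 585 nt in KIF22, 588 in KIF2C, 621 in KIF4A and 1599 in KIF11. In the most abundant transport kinesins it was 2522 nt in KIF5B and 4250 in KIF1C.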

How the data were processed

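Per the labels and methods, the authors clipped reads with Cutadapt 1.14, aligned them to hg38 with HISAT2 2.1.0, and counted them per gene with featureCounts 1.5.3. The values the authors deposited per library, in 1 table per line, were taken as FPKM scaled by TMM totals from edgeR 3.30.3. The files do not name this unit, which was inferred from the values and the stated use of that tool; multiplied by gene length, 100% were whole multiples of 1 read within a tolerance of 0.01. The deposited log2 fold change, p-value and FDR columns hold the authors' own comparisons and were not used.

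Each line was tested alone with limma 3.58.1 (moderated, intensity trend, two-sided) on log2(FPKM + 0.5) over genes that averaged 0.5 FPKM or more, 3 siC against 3 siI1 libraries, with Benjamini-Hochberg adjustment. Fold changes are on that scale, which understates changes of low genes. The members, classes and lists were chosen with earlier results of these data known. Values in every library are given for members called in all 4 lines, for those called in both directions, for the largest fall and rise called per class and line, for the highest siC level per class, and for IGF2BP1. The effect was compared between lines as the difference of fold changes, each from its own table. Scripts were tested on simulated data, in which more calls per line were false than the threshold aims at, nearly all in genes averaging fewer than 50 reads. The simulated spread beyond counting noise was the same for every gene and line, which real replicates need not follow. The 3 replicates per group are biological per the methods.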

Additional observations from a re-analysis of the deposited data

Results flagged for a closer look

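The knockdown effect differed between the 4 lines, by limma's F test over the fold changes with adjustment over all genes tested, for 18 kinesin genes, and 45.0% of all genes tested did so as well. In increasing order of adjusted p, the mitotic kinesins were KIF20A (1.62e-06), KIF15 (1.73e-05), KIF11 (0.000568), KIF14 (0.00102), KIF20B (0.00151), KIF4A (0.00402), KIF23 (0.00416), KIF18A (0.00805) and KIF18B (0.0122). KIF20A, KIF15, KIF11, KIF14, KIF20B, KIF23 and KIF18A had their lowest fold change in PANC1, KIF4A in A549 and KIF18B in MV3. Among transport kinesins these were KIF5B (1.37e-05), KIF3C (8.21e-05), KIF13A (0.000128), KIF3B (0.00279), KIF1B (0.0430) and KIF16B (0.0493). KIF3C was lower in A549 and ES2 and had a fold change of 0.13 in MV3, and KIF3B was lower in MV3 and had 0.16 in ES2. Among the other kinesins they were KIF2A (0.00186), KIF21A (0.00362) and KIF7 (0.0239), of which KIF7 had no call in any single line. PANC1 was harvested at 96 h and the other lines at 72 h, so line and harvest time cannot be told apart.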

How the results depend on the processing

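Of the 47 calls of a kinesin in a line, all 47 were kept with a pseudocount of 0.1 or 1 and with limma voom on read counts, 45 with libraries rescaled to the same sum of reads, 42 without the intensity trend, 41 without the filter on low values, and 45 of the 45 that could be tested at a minimum of 2 FPKM. Rescaling to the same sum of FPKM, chosen after seeing the data, kept 41. None reversed. With the replicate number as a block 39 were kept. Same-numbered libraries hardly deviated together (correlations from -0.0562 to 0.0711). With 3 libraries per group this cannot settle whether the samples were handled in pairs. Under the block the members lower in all 4 lines were 2 in place of 4 (KIF4A and KIF11), since KIF2C (adjusted p = 0.0533) and KIF22 (0.0777) lost their call in A549, mitotic kinesins lower in A549 were 2 in place of 5, transport kinesins lower in A549 were 1 in place of 2, and transport kinesins higher were 0 in place of 1 in A549 and in PANC1.

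Mitotic kinesins lower in A549 were 3 without the trend and 3 to 5 with 1 library left out. They were 6 of 11 at 2 FPKM (1567 of 12617 genes tested) and 7 of 11 with voom (2339 of 18411). In ES2 mitotic kinesins lower were 3 of 12 with the same sum of FPKM (1419 of 16940 genes tested) and 6 of 11 at 2 FPKM (2288 of 11569). Transport kinesins lower in A549 were 1 without the filter or the trend, 4 with voom and 1 to 2 with a library left out. In ES2 they were 2 with voom, and 1 transport kinesin was higher there with voom or the same sum of reads. In MV3, 2 were higher without the filter, without the trend, with the same sum of reads and with voom. In PANC1, 7 of 11 were lower with the same sum of reads, against 3489 of 15868 genes tested. With the same sum of FPKM 8 of 11 were lower in PANC1, against 8870 of 16238 genes tested (7609 of 11209 protein-coding genes). None was higher there without the filter, at 2 FPKM or with the same sum of FPKM, and 0 to 1 with a library left out. Members lower in all 4 lines were 2 with the same sum of FPKM (KIF2C and KIF4A). With that scaling KIF11 in ES2 (adjusted p = 0.127, limma) and KIF22 in A549 (0.0539) lost their call. Members lower in all 4 lines were 3 without the trend, 5 at 2 FPKM, where KIF18A joined, and 3 to 4 with a library left out.

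The mitotic median in A549 was between -0.35 and -0.30 with a library left out. In ES2 it was -0.18 with a pseudocount of 1, -0.17 at 2 FPKM and -0.17 with the same sum of FPKM, and -0.24 to -0.17 with a library left out. It was -0.42 in MV3 with the same sum of reads. In PANC1 it was -0.89 at 2 FPKM, -0.94 with the same sum of reads and -1.52 with the same sum of FPKM, which moves the median of all genes to -0.68. At 2 FPKM the transport median turned to -0.025 in ES2 and -0.0046 in MV3. With the same sum of reads it was 0.051, 0.10 and -0.30 in ES2, MV3 and PANC1. With the same sum of FPKM it was 0.090 in ES2 and -0.84 in PANC1. With a library left out it was 0.029 to 0.062 in MV3 and 0.00045 to 0.040 in ES2. The cause of these shifts was not tested. Depth limits the scarce members: KIF4B, KIF9, KIF17, KIF26A, KIF5A and KIF12 rest on at most 75 reads per library.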
